A study of Mus musculus with 6 samples.

Results

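The megalin, cubilin and Dab2 endocytic receptor system was taken as 5 genes, chosen by their symbols in the deposited table: the receptor genes Lrp2 (megalin) and Cubn (cubilin), the cubilin partner Amn (amnionless), the adaptor Dab2 and the chaperone Lrpap1. All 5 were found among the 25904 genes of the table, each as 1 row, and all 5 passed the minimum on expression (a mean of at least 20 normalised reads over the libraries), as did 12332 genes in all. The RNA came from mouse F9 cells, a teratocarcinoma line that differentiates into cells like extraembryonic endoderm when it is given retinoic acid (RA). There were 6 libraries. The 3 lines, expressing the hairpins shGFP (the control), shCtbp2 or shRxr, were each sequenced untreated (UT) and after 1 µM all-trans RA for 48 hours, in medium whose serum had been stripped with charcoal. Each of the 6 groups held 1 library, each line stands for 1 hairpin culture, and the labels do not say which retinoid X receptor gene shRxr is aimed at.

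Megalin is a very large receptor of the low density lipoprotein (LDL) receptor family. Cubilin has no membrane anchor of its own and reaches the cell surface bound to amnionless, a small membrane protein. Together with megalin this pair takes up proteins, vitamin carriers and lipoproteins at the apical surface of the kidney proximal tubule and of the visceral endoderm, the layer that feeds the early mouse embryo. Dab2 binds the tail of megalin and links it to clathrin-coated pits. The receptor-associated protein encoded by Lrpap1 stays in the endoplasmic reticulum and keeps newly made receptors of this family from binding ligands too early.

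The upstream sequences of 4 of the genes are shown because Dab2, Cubn and Lrp2 were all higher in RA in the control line while Amn followed another pattern. RefSeq start sites were matched for all 5 symbols (build GRCm38.p6), 1 start for each gene and 2 for Dab2. Each line below gives the 250 bases before a start site, 5′ to 3′ along the strand of the gene, and capitals mark matches to the motifs searched.
Dab2, chr15:6299539-6299788, plus strand: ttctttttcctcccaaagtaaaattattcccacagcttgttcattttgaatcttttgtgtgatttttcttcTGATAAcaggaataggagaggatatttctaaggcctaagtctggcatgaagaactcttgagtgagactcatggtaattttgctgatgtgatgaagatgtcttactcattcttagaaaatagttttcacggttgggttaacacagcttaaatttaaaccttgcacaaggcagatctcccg
Cubn, chr2:13491877-13492126, minus strand: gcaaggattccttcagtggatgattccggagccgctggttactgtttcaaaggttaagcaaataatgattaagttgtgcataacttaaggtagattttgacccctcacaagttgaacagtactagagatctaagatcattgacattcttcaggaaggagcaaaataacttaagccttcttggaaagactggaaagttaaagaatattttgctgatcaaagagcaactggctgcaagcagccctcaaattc
Lrp2, chr2:69586030-69586279, minus strand: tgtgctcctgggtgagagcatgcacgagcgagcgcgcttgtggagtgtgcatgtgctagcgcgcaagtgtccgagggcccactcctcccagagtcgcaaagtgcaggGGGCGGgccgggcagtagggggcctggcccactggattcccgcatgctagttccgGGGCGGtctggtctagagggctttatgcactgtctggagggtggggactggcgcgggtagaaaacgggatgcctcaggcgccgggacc
Amn, chr12:111270846-111271095, plus strand: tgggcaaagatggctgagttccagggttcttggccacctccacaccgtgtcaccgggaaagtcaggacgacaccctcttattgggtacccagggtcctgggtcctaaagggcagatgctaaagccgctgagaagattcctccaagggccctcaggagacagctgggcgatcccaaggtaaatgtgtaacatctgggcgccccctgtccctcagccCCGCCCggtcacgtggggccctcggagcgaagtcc
The motifs were searched on both strands in windows from 250 bases before to 50 bases after the start. GATA factors were given the letters AGATAA and the variant TGATAA. The core that nuclear receptors bind was AGGTCA. The Sp1 family motif was GGGCGG. The E-box that ZEB proteins bind was CAGGTG, and TATAAA stood for the TATA box. The GATA motif, present in 18.6% of the 32851 windows of the table, was found only at the upstream Dab2 start among these genes, first at position -179 from the start and again at position 14, on the opposite strand. GGGCGG, present in 35.7% of windows, was found 2 times before Lrp2, 5 times before Lrpap1 and 1 time, on the opposite strand, before Amn. AGGTCA (16.3% of windows), CAGGTG (20.2%) and TATAAA (13.6%) had no match in the windows of the 5 genes, which says only that these letters are not there. The sequences also differ in base composition. The 250 bases before the upstream Dab2 start hold 36.8% G and C, those before Cubn 39.6%, those before Lrp2 66.4% and those before Amn 61.2%. The downstream Dab2 window (60.0% before the start) had no match.

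The libraries held 9955808 to 13322506 counted reads. Levels are given as normalised reads, that is, reads per 10000000 counted in genes, and with 1 library per group the intervals given cover counting error only. Ctbp2 stood at 1811 and 701 in shGFP (UT and RA) against 210.1 and 55.4 in shCtbp2, and Rxra at 520 and 805 in shGFP against 73.7 and 82.4 in shRxr, so both target labels held. All libraries had the embryonal carcinoma markers of F9 cells, with Pou5f1 between 8530 and 26185. One library stood apart: values of shCtbp2_RA were higher at higher GC content of the transcript (Spearman 0.654 across 12133 genes for the deviation from the mean of all libraries). A weaker trend in that direction was seen in shGFP_RA (0.252), while the other libraries lay between -0.441 and -0.396. The median GC content of the genes tested was 50.1%, while it was 62.9% for Amn, 52.8% for Lrpap1, 49.1% for Lrp2, 46.4% for Cubn and 45.7% for Dab2. Values adjusted for the GC content and length of the transcripts (GC-adjusted values) are therefore given with the results on shCtbp2_RA that are expressed as log2 changes. Whether the adjustment removes a bias of the library or part of a true response cannot be told apart.

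Lrp2 (ENSMUSG00000027070, protein coding, mm9 chromosome 2, 69262397 to 69424122) had 667.7 normalised reads untreated and 2963 in RA for shGFP, 454.1 and 392.9 for shCtbp2, and 584.2 and 1515 for shRxr. The untreated libraries lay close together, the RA libraries of shGFP and shRxr were the 2 highest, and shCtbp2_RA was the lowest of all 6. In RA Lrp2 was 4.44-fold higher in shGFP (95% counting interval 4.12 to 4.79) and 2.59-fold higher in shRxr (2.37 to 2.84), while in shCtbp2 it was at 0.865 of its untreated level (0.759 to 0.986). In these bulk libraries fewer cells that express a gene and less of its RNA in each cell cannot be told apart.

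Cubn (ENSMUSG00000026726, protein coding, mm9 chromosome 2, 13197965 to 13413551) had 36.2 untreated and 248.5 in RA for shGFP, 62.9 and 82.2 for shCtbp2, and 19.3 and 133.6 for shRxr. Every RA library was above every untreated one, but in shCtbp2 the step was small. The folds were 6.86 in shGFP (5.01 to 9.58), 1.31 in shCtbp2 (0.946 to 1.81) and 6.94 in shRxr (4.43 to 11.3). A lincRNA gene that overlaps Cubn, Gm13270, had no read in any library.

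Amn (ENSMUSG00000021278, protein coding, mm9 chromosome 12, 112509322 to 112514637) had few reads, 20 to 152 in a library. Its levels, untreated then RA, were 20.1 and 33.8 normalised reads for shGFP, 59.6 and 150.4 for shCtbp2, and 25.9 and 20.1 for shRxr. Both shCtbp2 libraries were above the other 4, which lay between 20.1 and 33.8. The RA folds were 1.68 in shGFP (1.01 to 2.85), 2.53 in shCtbp2 (1.90 to 3.39) and 0.774 in shRxr (0.418 to 1.4).

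Dab2 (ENSMUSG00000022150, protein coding, mm9 chromosome 15, 6249788 to 6390712) had 103.9 untreated and 862.5 in RA for shGFP, 74.4 and 263.3 for shCtbp2, and 63.6 and 372.6 for shRxr. Every RA library was above every untreated one in all lines. The folds were 8.30 in shGFP (6.91 to 10.04), 3.54 in shCtbp2 (2.77 to 4.54) and 5.86 in shRxr (4.57 to 7.60).

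Lrpap1 (ENSMUSG00000029103, protein coding, mm9 chromosome 5, 35434139 to 35448415) had the highest level per kb of transcript of the 5 genes in every library. Its levels, untreated then RA, were 1432 and 5126 for shGFP, 1650 and 4698 for shCtbp2, and 1415 and 2990 for shRxr. Its RA libraries were all above its untreated ones, by 3.58-fold in shGFP (3.4 to 3.77), 2.85-fold in shCtbp2 (2.70 to 3.0) and 2.11-fold in shRxr (1.99 to 2.24).

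**Figure D1:**
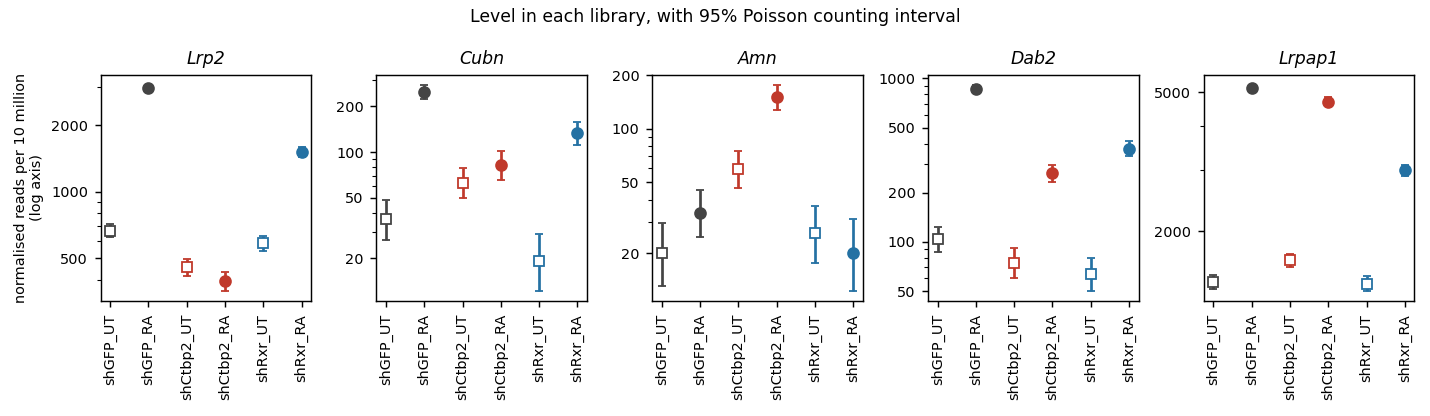
Normalised reads of each gene (log axis, a panel per gene with its own range) in the 6 libraries, open squares untreated and filled circles in RA, with 95% Poisson counting intervals. Lrp2 runs from 392.9 in shCtbp2_RA to 2963 in shGFP_RA, and Amn is highest in shCtbp2_RA at 150.4.

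The effect of RA over the 3 lines was tested with a limma model in which the lines stood in as replicates. Over all lines the adaptor Dab2 rose most of the 5, with a log2 change of 2.34 (SE 0.30, adjusted p 0.000323), Cubn by 1.71 (SE 0.39, adjusted p 0.0100) and the chaperone Lrpap1 by 1.47 (SE 0.26, adjusted p 0.00250), each in 3 of 3 lines. Lrp2, with a log2 change of 1.10 (SE 0.37, adjusted p 0.0614, higher in 2 of 3 lines), and Amn, with 0.50 (SE 0.33, adjusted p 0.337, higher in 2 of 3), did not pass. So 3 of 5 genes rose, where 10.8% of all genes tested were raised, and none fell, where 4.63% were lowered. The median log2 change was 1.47 over the 5 genes and 0.07 over all genes. Log2 changes are on the scale log2(normalised reads + 10), and adjusted p-values are Benjamini-Hochberg over all 12332 genes.

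The Cubn and Lrpap1 calls did not hold with a shGFP library left out, while both changes stayed upward. Without shGFP_UT the Cubn change was 1.32 (adjusted p 0.165) and the Lrpap1 change 1.29 (0.245), without shGFP_RA they were 1.32 (0.143) and 1.29 (0.262), and Dab2 was then the only one of the 5 that passed. With shCtbp2_UT or shCtbp2_RA left out the Lrp2 change was 1.75, and with shRxr_UT or shRxr_RA left out it was 0.96. Lrp2 passed in each of these fits, which had 1 residual degree of freedom. Without a shGFP or a shRxr library the prior was infinite too, so the p-values did not use the gene's own spread between lines. Without a shRxr library that spread was, for Lrp2, 2.13 in shGFP against -0.20 in shCtbp2. Lrp2 also passed with libraries scaled to equal upper quartiles (1.04, adjusted p 0.0281), with median-of-ratios scaling (1.02, 0.0311) and with GC-adjusted values (1.31, 0.0138). Over all 8 other settings its adjusted p ranged from 0.0138 to 0.113. Cubn missed the threshold without a minimum on expression (1.71, adjusted p 0.0506, the highest of its 7 settings).

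Line by line, 4 of 5 genes were at least 2-fold higher in RA in shGFP, all but Amn, where 13.4% of genes were. With GC adjustment the changes in shGFP were 2.28 for Lrp2, 2.74 for Cubn and 2.89 for Dab2. Those of Lrpap1 and Amn were 1.48 (1.83 before) and 0.01 (0.54 before), which left the count at 4. The same 4 were at least 2-fold higher in shRxr, where 5.26% of genes were. Lrpap1 fell short there with equal upper quartiles (log2 fold 0.97), median-of-ratios scaling (0.96) and GC adjustment (0.95), which leaves 3. In shCtbp2 it was 3 of 5, Amn, Dab2 and Lrpap1, where 15.1% were. With GC adjustment it was also 3, but Cubn (1.14), Dab2 (2.26) and Lrpap1 (1.05), without Amn (0.11). None of the 5 was at least 2-fold lower with RA in any line (background 7.07% in shGFP, 19.3% in shCtbp2 and 1.46% in shRxr). The median log2 change of the 5 genes was 2.13 for shGFP, 1.21 for shCtbp2 and 1.36 for shRxr, against 0.12, 0.07 and 0.09 over all genes.

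**Figure D2:**
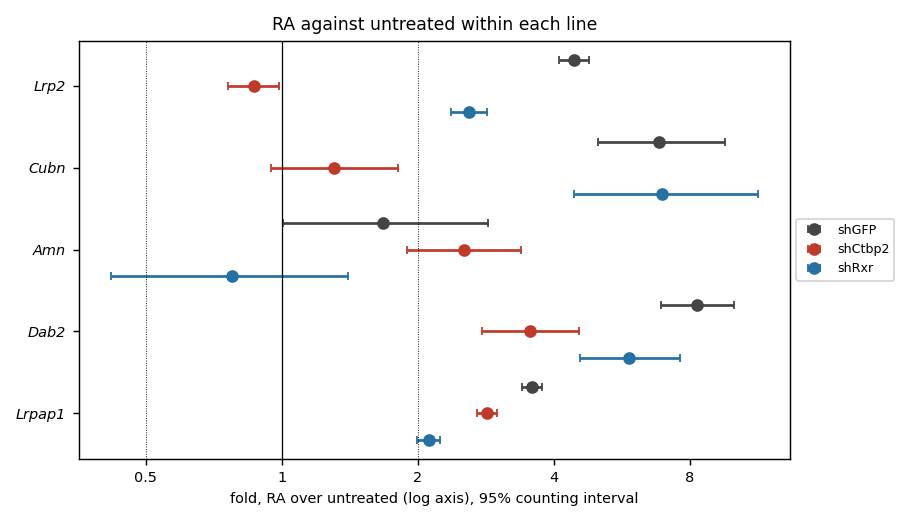
Fold of each gene in RA over untreated (log axis) within each line, with 95% counting intervals and dotted lines at folds of 0.5 and 2. Lrp2 in shCtbp2 (0.865) and Amn in shRxr (0.774) are the only points left of 1.

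To compare the responses, the RA change in shGFP was subtracted from that in each knock-down. Both knock-downs were set against the same shGFP libraries. In shCtbp2 the response of Lrp2 differed by -2.34 (a log2 change of -0.20 against 2.13, counting SE of the difference 0.11), and only 0.170% of genes had a more negative difference. The response of Cubn differed by -2.14 (0.34 against 2.48, counting SE 0.32), with 0.292% of genes below it. Dab2 differed by -1.24 (counting SE 0.22), Lrpap1 by -0.33 (0.05) and Amn by 0.67 (0.41), beside a median of -0.13 over all genes. Thus 3 of 5 genes had a response lower by at least 1, where 12.4% of genes did, and none had one higher by at least 1, where 2.72% did. No test of these differences was possible with 1 library per group.

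GC content moved with this result. In GC-adjusted values the RA change of Lrp2 in shCtbp2 was 0.53 in place of -0.20, so its direction turned, and that of Cubn was 1.14 in place of 0.34. The differences in response were then -1.75 for Lrp2, -1.61 for Cubn, -0.63 for Dab2 and -0.43 for Lrpap1, so Dab2 no longer passed a difference of 1. The RA change of Amn in shCtbp2, 1.21 before the adjustment, was 0.11 after it, and its difference in response 0.10.

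In shRxr the responses of Lrp2, Dab2 and Lrpap1 were smaller than in shGFP by over 2 counting SEs. The differences were -0.77 for Lrp2 (counting SE 0.09), -0.19 for Cubn (0.40), -0.80 for Amn (0.55), -0.56 for Dab2 (0.23) and -0.76 for Lrpap1 (0.06), with a median of -0.09 over all genes. None reached 1 in either direction, where 4.47% of genes were lower and 5.60% higher by that much. The Cubn difference was within 2 counting SEs of 0, and the Cubn folds without the added 10 were nearly equal (6.86 for shGFP, 6.94 for shRxr). For Amn the difference has 10 added to its low levels while the counting SE has not, so the 2 cannot be compared. With a pseudocount of 1 the Amn difference was -1.07. With GC adjustment the Lrp2 difference was -1.14, the only one past 1.

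The lines were next compared at each treatment, which asks whether the knock-down cells already differed before RA. Untreated, Lrp2 was 1.47-fold lower in shCtbp2 than in shGFP (1.32 to 1.64) and Dab2 1.4-fold lower (1.06 to 1.85), whereas Cubn was 1.73-fold higher (1.18 to 2.57), Amn 2.96-fold higher (1.85 to 4.87) and Lrpap1 1.15-fold higher (1.08 to 1.23). Amn was the only one of the 5 at least 2-fold away on the log2 scale with 10 added, where 1.39% of genes were higher and 2.34% lower by that much. In RA the Lrp2 level of shCtbp2 was 7.54-fold below that of shGFP (6.80 to 8.38), and only 0.0568% of genes had a more negative difference. Dab2 was 3.28-fold lower (2.86 to 3.76) and Cubn 3.02-fold lower (2.37 to 3.90). Amn was 4.45-fold higher (3.17 to 6.36), with 0.405% of genes above it. Lrpap1 was 1.09-fold lower (1.05 to 1.13), a direction that turned with either other scaling (log2 fold 0.12 for equal upper quartiles, 0.0194 for median-of-ratios). So in RA 3 of 5 genes were at least 2-fold lower in shCtbp2, where 14.8% of genes were, and 1 was higher, where 3.18% were.

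With GC adjustment the Lrp2 difference in RA was -2.13 in place of -2.88 on the log2 scale, that of Dab2 -1.02 in place of -1.67, and that of Cubn -0.80 in place of -1.49, which is under 2-fold. Amn stayed higher in shCtbp2 after it, by a log2 of 1.31 untreated (1.21 before) and 1.41 in RA (1.87 before). The gene next to Amn, Traf3, 3958 bases away, stood at 333.3 and 244.5 in shCtbp2 (UT and RA) against 400.3 and 590.0 in shGFP, that is, lower where Amn was higher.

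Against shGFP over both treatments, with the treatments standing in as replicates, limma called none of the 5 genes in the shCtbp2 line (0.105% of all genes were raised and 0.0405% lowered). The log2 differences were -1.71 for Lrp2 (SE 0.45, adjusted p 0.181, lower at 2 of 2 treatments), 1.54 for Amn (SE 0.41, adjusted p 0.185, higher at 2 of 2) and -1.05 for Dab2 (SE 0.37, adjusted p 0.362, lower at 2 of 2). These 3 had an unadjusted p under 0.05, as did 8.85% of all genes, and voom on the recovered reads also called none. Cubn (-0.42) went opposite ways at the treatments, and Lrpap1 was at 0.04. With GC adjustment the differences were -1.26 for Lrp2, 1.36 for Amn, -0.71 for Dab2, 0.0057 for Cubn and 0.03 for Lrpap1, and again none passed. Single libraries moved these calls. Without shCtbp2_UT Lrp2 (-2.69, adjusted p 0.0422), Dab2 (-1.53, 0.0431) and Amn (2.07, 0.0431) passed. Without shRxr_UT or shRxr_RA the differences of Lrp2 (-1.71) and Amn (1.54) were unchanged, since shRxr does not enter them, yet both passed. There only the error term had changed. Its prior was infinite, so it did not use the gene's own spread between treatments (-0.55 untreated and -2.88 in RA for Lrp2). Without shCtbp2_RA the Lrp2 difference was -0.74 (adjusted p 0.827), that of Amn 1.01 (0.898) and that of Dab2 -0.57 (1). Over all 8 other settings the adjusted p of Lrp2 ranged from 0.0602 to 0.419, and over 7 that of Amn from 0.0638 to 0.455. The hairpin and any other difference between the cultures cannot be told apart.

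In the shRxr line the differences from shGFP were smaller and mostly downward. Untreated, Dab2 was 1.63-fold lower (1.22 to 2.20), Cubn 1.88-fold lower (1.12 to 3.26) and Lrp2 1.14-fold lower (1.03 to 1.27), while the intervals of Amn (1.29-fold higher, 0.736 to 2.28) and Lrpap1 (0.988-fold, 0.924 to 1.06) included 1. None of the 5 was 2-fold away, where 0.389% of genes were higher and 0.0649% lower by that much. In RA Dab2 was 2.31-fold lower (2.06 to 2.61), Lrp2 1.96-fold lower (1.84 to 2.08), Cubn 1.86-fold (1.52 to 2.29) and Lrpap1 1.71-fold lower (1.64 to 1.79). Amn was 1.68-fold lower, with an interval of 0.973 to 3.01 for the size of that fold. Dab2 alone was at least 2-fold lower on the log2 scale, where 2.62% of genes were, and none was higher, where 3.74% were. With GC adjustment Lrp2 (-1.35) and Cubn (-1.32) were past 2-fold as well as Dab2 (-1.30). Over both treatments limma called none of the 5 (0% of all genes were raised and 0.00811% lowered, a single gene). Dab2 had a log2 difference of -0.91 (SE 0.37, unadjusted p 0.0283, adjusted p 1, lower at 2 of 2 treatments) and was the only one of the 5 with an unadjusted p under 0.05, as 1.23% of all genes had. Voom also called none. Lrp2 (-0.58), Cubn (-0.75) and Lrpap1 (-0.40) were also lower at 2 of 2 treatments, and Amn (-0.14) was not. Without shGFP_RA the Lrp2 difference turned to 0.20.

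**Figure D3:**
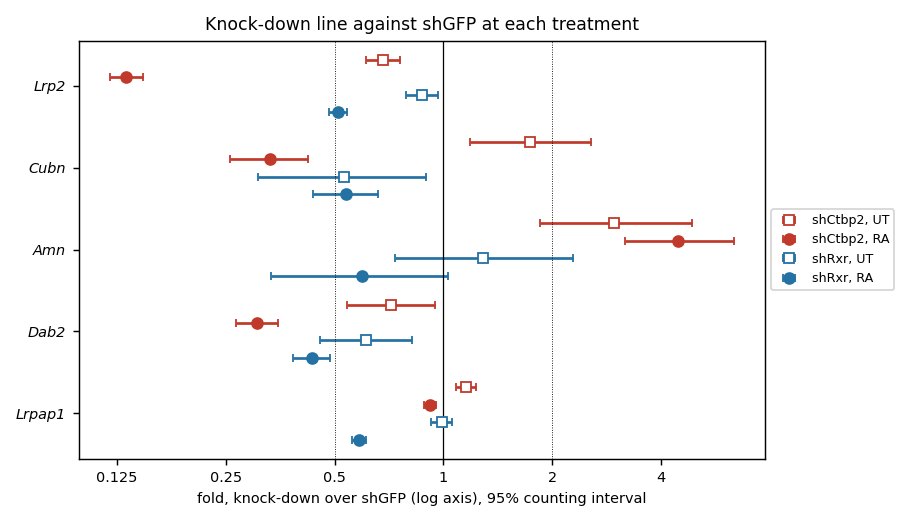
Fold of each gene in the shCtbp2 and shRxr lines over shGFP (log axis), open squares untreated and filled circles in RA, with 95% counting intervals and dotted lines at 0.5 and 2. In RA Lrp2 in shCtbp2 lies farthest left, at 0.133, and Amn in shCtbp2 farthest right, at 4.45.

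The balance between partners was compared within each library, as ratios of reads per kb of the longest annotated transcript (GENCODE M21; 15.46 kb for Lrp2, 11.26 kb for Cubn, 1.70 kb for Amn, 4.66 kb for Dab2 and 2.98 kb for Lrpap1). Cubn and Amn form 1 complex. Untreated, Cubn stood at 0.272 per Amn in shGFP (0.163 to 0.463), 0.159 in shCtbp2 (0.114 to 0.223) and 0.112 in shRxr (0.0624 to 0.199). In RA the ratio was near 1 in shGFP (1.11, 0.812 to 1.55) and shRxr (1.0, 0.625 to 1.70) but 0.0825 in shCtbp2 (0.0623 to 0.108), the lowest of the 6 libraries. This ratio pairs the genes with the highest and a low GC content, and its direction in shCtbp2 turned with GC adjustment. There the log2 change of the ratio with RA was -0.87 before the adjustment and 1.03 after it, while it was 1.94 and 2.73 in shGFP and 2.55 and 2.44 in shRxr.

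Lrpap1 was in excess over its client Lrp2 in every library. The ratio per kb was 11.1 in shGFP_UT (10.2 to 12.1) and 8.97 in shGFP_RA (8.62 to 9.33), 12.6 in shRxr_UT (11.5 to 13.7) and 10.2 in shRxr_RA (9.62 to 10.9), against 18.8 in shCtbp2_UT (17.1 to 20.8) and 62.0 in shCtbp2_RA (56.0 to 68.9). The ratio was thus lower in RA in shGFP and shRxr and higher in shCtbp2. With GC adjustment its log2 change in shCtbp2 was 0.52 in place of 1.71. Dab2 had 0.516 per Lrp2 in shGFP_UT (0.425 to 0.622) and 0.965 in shGFP_RA (0.903 to 1.03), 0.544 and 2.22 for shCtbp2, and 0.361 and 0.816 for shRxr, so that it was higher against Lrp2 in the RA library of each line. In shCtbp2 the log2 change of this ratio was 1.90, and 1.73 with GC adjustment.

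**Figure D4:**
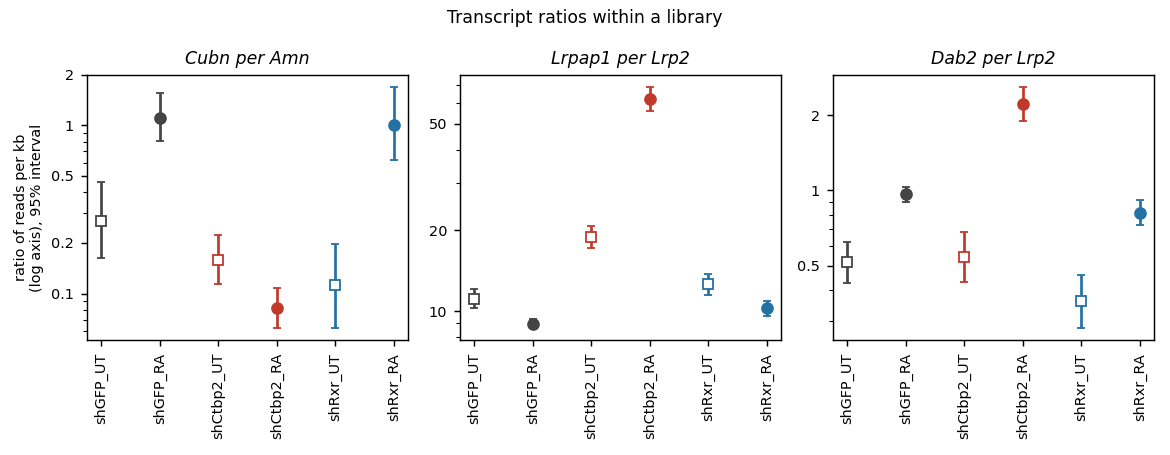
Ratios of reads per kb within each library (log axes) for Cubn per Amn, Lrpap1 per Lrp2 and Dab2 per Lrp2, open squares untreated and filled circles in RA, with 95% intervals. In shCtbp2_RA the Cubn per Amn ratio is lowest (0.0825) and the other 2 ratios are highest (62.0 and 2.22).

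Per kb the order of levels was Lrpap1, Lrp2, Dab2, Amn, Cubn in shGFP_UT (480.4, 43.2, 22.3, 11.8 and 3.22 normalised reads per kb). In shGFP_RA Lrpap1 (1720) was followed by Lrp2 (191.7) and Dab2 (185.0), whose ratio had an interval that included 1, and by Cubn (22.1) and Amn (19.9), for which it did so too. In shCtbp2_RA the order was Lrpap1 (1576), Amn (88.4), Dab2 (56.5), Lrp2 (25.4) and Cubn (7.29), which put both receptors last. These levels are not GC-adjusted.

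The genes whose profile over the 6 libraries lay closest to each member were looked up, by the root mean square difference of log2 values after each profile was centred on its mean. This describes 6 libraries that share lines and treatments. Closest to Lrp2 were Phldb2 (0.20), Man1a (0.26), the bicarbonate transporter Slc4a4 (0.27) and the intermediate filament gene Nes (0.28). Phldb2, for example, had 107.9 and 364.8 (UT and RA) for shGFP, 61.2 and 63.3 for shCtbp2, and 92.9 and 190.8 for shRxr. Closest to Cubn were Anxa3 (0.24), Mecom (0.32), Maml3 (0.35) and Gcnt1 (0.37). Closest to Dab2 were the endothelin receptor gene Ednrb (0.20), Slc25a21 (0.21) and the homeobox gene Hoxb2 (0.23), each with at most 5.64 normalised reads in an untreated library. Amn lay closest to 2210011C24Rik (0.19), Anxa6 (0.19), Etnk2 (0.21) and Crip1 (0.22), and Lrpap1 to Fhdc1 (0.03), Chst14 (0.08), Zfp316 (0.09) and Sh3bp2 (0.09). No member was among the closest of another. Between members the smallest difference was that of Cubn and Dab2 (0.49) and the largest that of Lrp2 and Amn (1.64).

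The rest of the uptake machinery was taken from lists. Of 14 genes tested of the LDL receptor family and its chaperones 3 rose with RA over the lines and none fell (median log2 change 0.43). Of all genes tested 10.8% rose and 4.63% fell. The 3 of this list were Lrp10 (1.06, SE 0.29, adjusted p 0.0256), Mesdc2 (0.89, adjusted p 0.0389), a chaperone of LDL receptor-related proteins, and Mesdc1 (2.12, SE 0.34, adjusted p 0.00123), which is listed beside Mesdc2 by name but is not known as a chaperone. Lrp1, a large receptor of the family, had a log2 change of 0.61 that did not pass (adjusted p 0.131). Vldlr had the lowest level of its 6 libraries in shCtbp2_RA (276.1, against 996.8 in shGFP_RA), as Lrp2 did. So had Lrp4, Lrp6, Lrp8, Lrp12 and Sorl1, while the other genes of the list had not. Of all genes tested 14.8% were at least 2-fold lower in shCtbp2_RA than in shGFP_RA, and these levels are not GC-adjusted.

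Of 28 clathrin adaptors and coat genes 4 rose and 1 fell (median 0.07, as over all genes), where 10.8% of all genes rose and 4.63% fell. Among those that rose were Sh3kbp1, an adaptor of receptor endocytosis (1.27, SE 0.34, adjusted p 0.0251), Dnm2, the dynamin that cuts vesicles off (1.15, SE 0.26, adjusted p 0.00971), and Numbl (1.0, adjusted p 0.0342). Dab1, the Dab2 paralog that works in reelin signalling, fell by 1.85 (SE 0.32, adjusted p 0.00220), from 319.7 to 81.8 in shGFP, 316.8 to 42.6 in shCtbp2 and 246.1 to 112.5 in shRxr. So the paralogs Dab2 and Dab1 went opposite ways in 3 of 3 lines. Of 28 endosome and lysosome genes 4 rose and none fell (median 0.25), where 10.8% of all genes rose. With GC adjustment 6 rose and 3 fell, and with median-of-ratios scaling 4 rose and 1 fell. Clcn5, the endosomal chloride transporter on which uptake in the proximal tubule depends, rose by 1.35 (SE 0.28, adjusted p 0.00564). Its levels (UT and RA) were 451.0 and 1689 for shGFP, 236.6 and 455.3 for shCtbp2, and 556.6 and 1351 for shRxr. The proteases Ctsz (1.30, SE 0.30, adjusted p 0.0109), Ctsb (1.08) and Ctsh (1.19) rose too.

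Of 24 genes of ligands and cargo pathways only 10 passed the minimum on expression, of which 7 rose and none fell (median 1.49, over genes that had to be expressed in some library). The shares over all genes tested were 10.8% raised and 4.63% lowered. Stra6, the retinol uptake receptor, rose by 5.59 (SE 0.40, adjusted p 7.67e-06) and Plat, a plasminogen activator that megalin can bind, by 3.18 (SE 0.33, adjusted p 6.80e-05). Folr1 (2.15, adjusted p 0.000376), a folate receptor, and Tcn2 (1.04, adjusted p 0.0232), the vitamin B12 carrier that megalin takes up, rose as well. Alb, the blood carrier albumin, and Gif, the gut carrier of vitamin B12 that cubilin takes up, had no read in any library.

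**Figure D5:**
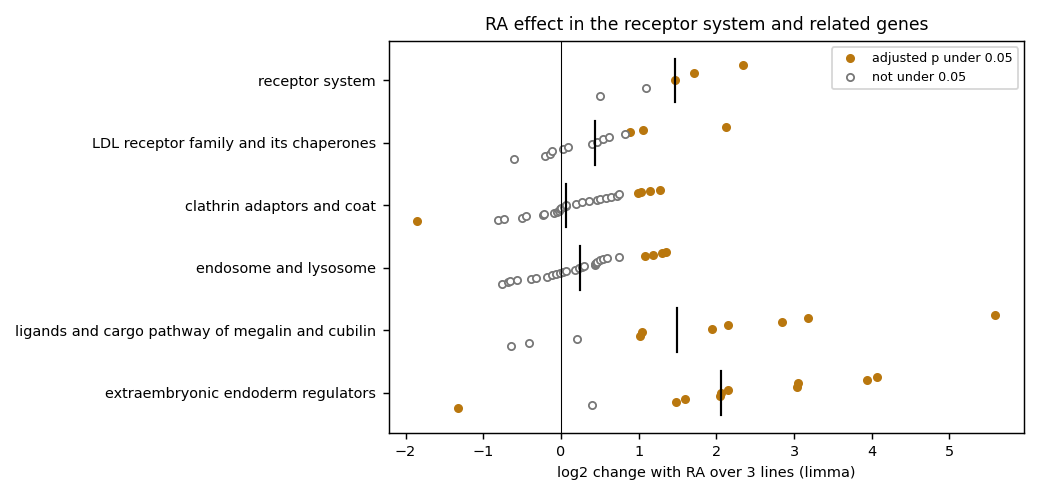
Log2 change with RA over the 3 lines (limma) for the receptor system and 5 lists of related genes. Each point is a gene, filled where the adjusted p was under 0.05, and the bar is the median of the row, for example 1.47 for the receptor system and 0.07 for clathrin adaptors and coat genes.

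Markers of the cell types known for this receptor system were set beside it. For each count below, the shares over all genes tested were 10.8% raised and 4.63% lowered. Of 11 regulators of extraembryonic endoderm 9 rose and 1, Hnf4a (-1.32, SE 0.31, adjusted p 0.0119), fell. Gata6 rose by 4.07 (SE 0.29, adjusted p 7.67e-06) and Foxa1 by 3.94 (SE 0.40, adjusted p 5.90e-05). Gata6 stood at 739.4 in shGFP_RA, 435.5 in shCtbp2_RA and 447.0 in shRxr_RA, so the 2 knock-down lines were near each other in Gata6 while their Lrp2 levels were 392.9 and 1515. Of 15 visceral endoderm markers 6 were tested, of which 3 rose, Cited1 (2.06), Ihh (1.56) and Fgfr4 (1.15), and 1, Hnf4a, fell. The summed level of the 14 in the table was 462.0 to 1180 untreated and 499.2 to 996.1 in RA, of which Podxl, a sialomucin that other epithelia make too, was 233.5 to 918.1 untreated and 231.0 to 637.3 in RA. Among those below the minimum on expression, Afp had at most 0.805 normalised reads in a library, Ttr at most 4.50 and Apoa1 at most 2.51. Rbp4, also below it, was higher in RA in each line (7.25 to 41.3 in shGFP, 3.31 to 21.8 in shCtbp2 and 11.7 to 29.1 in shRxr). Of 14 tested parietal endoderm markers 9 rose, with Plat and the collagen chaperone Serpinh1 (2.37) highest, and 1, Fst (-1.52), fell, and the summed level of all 15 was 17742 to 23150 untreated and 29222 to 50855 in RA, highest in shGFP_RA. Of 12 pluripotency and embryonal carcinoma genes 6 fell over the lines, among them Tdgf1 (-2.12, SE 0.35, adjusted p 0.00150) and Zfp42 (-1.52, SE 0.32, adjusted p 0.00602), and none rose. Their summed level (UT and RA) was 68599 and 30256 for shGFP, 68661 and 66644 for shCtbp2, and 71028 and 51444 for shRxr. In shCtbp2 Pou5f1 (18524 to 26185), Esrrb (8166 to 11719) and Dppa5a (4940 to 8488) were higher in RA, and the other genes of this list were lower. These sums and levels are not GC-adjusted. Of 5 tested neuroectoderm genes Sox3 (2.13, SE 0.38, adjusted p 0.00249) and Pax6 (1.70, SE 0.31, adjusted p 0.00276) rose and Otx2 (-3.82, SE 0.33, adjusted p 2.11e-05) fell. The kidney proximal tubule markers Slc34a1 and Slc22a6 had no read in any library. Fibroblast and blood markers were near 0 for Col3a1, Dcn, Ptprc and Hba-a1, while Pdgfrb rose (3.03, SE 0.33, adjusted p 9.92e-05) and Thy1 fell (-1.72). The part of any such cell mixture in the levels of Lrp2, Cubn, Amn, Dab2 and Lrpap1 was not tested.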

How the data were processed

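RNA of F9 cells was made into TruSeq libraries and sequenced on an Illumina HiSeq, per the labels' protocols. The submitters' processing notes name TopHat 1.4, HTSeq and mm9; how HTSeq treated strand and overlapping genes is not given in the sources used here. Values in the deposited table are log2 of reads per 10000000 counted in genes, plus 1. That scale was worked out from the numbers themselves, 100% of which gave whole reads within 1e-06 of a read. All 6 columns matched a library by name. Some genes that the naming rule selects are not reported here.

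The 5 genes and all lists were chosen with earlier results of these data known. Members were named always, and from each list the 2 called genes with the largest rise and fall; other list genes were named after their values were seen. Folds are ratios of unlogged levels with exact Clopper-Pearson intervals, and intervals of levels and ratios are exact too; none covers differences between cultures. At least 2-fold means a difference of 1 on log2(normalised reads + 10), which understates the change of low genes. Counting SEs of differences in response come from the reads without the added 10, so for low genes they do not match the differences beside them. The test was limma with a trend (version 3.58.1 in R 4.3.3) on line plus treatment, with 2 residual and 11.2 prior degrees of freedom, and a threshold of 0.05. With 1 library left out it had 1 residual degree of freedom and, in 4 of 6 such fits, an infinite prior. P-values measure the spread between lines or treatments, moderated toward that of all genes, since no group had a second library. In fits with an infinite prior they rest on the spread of all genes and not on that of the gene itself. On simulated data for the RA effect with 12332 genes, 93% of 100 genes changed 2-fold and 100% of 100 changed 4-fold were recovered, and 5.85% of calls were false. The simulated counts had 1 fixed dispersion, the same RA effect in every line, no difference between lines and no GC trend. These rates therefore do not hold for real libraries whose lines differ in RA response or whose values follow GC content. GC content and length, from the longest GENCODE M21 transcript, were known for 12133 genes (98.4%) and removed by loess in each library; for folds within a line or treatment and for ratios this alternative was chosen after seeing the data. Other alternatives were another pseudocount, filter or scaling, voom, and leaving out libraries or lines. Python 3.11.15, pandas 2.3.3 and scipy 1.17.1 were used.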

Additional observations from a re-analysis of the deposited data

Results flagged for a closer look

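With 1 library per group the following differences between lines or treatments were not tested; each was marked because the folds of 1 gene went opposite ways. The RA log2 fold of Lrp2 was 2.15 for shGFP, -0.21 for shCtbp2 and 1.37 for shRxr, and the GC-adjusted change in shCtbp2 was 0.53. The RA log2 fold of Amn was 0.75 for shGFP, 1.34 for shCtbp2 and -0.37 for shRxr, the last with a counting interval that included no change.

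Cubn in shCtbp2 against shGFP had a log2 fold of 0.79 untreated and -1.60 in RA, with counting intervals that did not include 0. Amn in shRxr against shGFP had 0.37 untreated and -0.75 in RA, with intervals that both included 0. Lrpap1 in shCtbp2 against shGFP had 0.20 untreated and -0.13 in RA, and the latter turned with either other scaling (0.12 for equal upper quartiles, 0.0194 for median-of-ratios).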

How the results depend on the processing

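Settings moved the number of genes raised by RA from 3 to 2 (no minimum on expression) or 4 (other scalings, GC adjustment). It was also 2 with a mean of at least 100, where Cubn (mean 97.1) and Amn (51.7) were below the minimum and not tested. In the lists the clathrin genes raised were 2 in place of 4 with either other minimum, those lowered 2 in place of 1 with either other scaling, and 1 ligand or cargo gene was lowered with GC adjustment. For the RA effect over 3 lines Lrp2 passed with equal upper quartiles (1.04), median-of-ratios scaling (1.02) and GC adjustment (1.31), Cubn missed without a minimum on expression (1.71, adjusted p 0.0506), and Amn turned to -0.0827 with GC adjustment. With that adjustment the shCtbp2 difference of Cubn over both treatments turned to 0.0057 and the RA change of Lrp2 in shCtbp2 to 0.53. Lrpap1 in shCtbp2 against shGFP in RA turned with either other scaling (0.12 for equal upper quartiles, 0.0194 for median-of-ratios). The count of genes whose RA response was lower by at least 1 in shRxr was 1 in place of 0 with a pseudocount of 1 and with GC adjustment. The causes of the other changes were not tested.

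With a library or line left out, the genes raised by RA numbered 1 to 4 (1 without shGFP_UT or shGFP_RA). The RA change ranged from 0.58 to 1.75 for Lrp2, 1.32 to 2.39 for Cubn, 0.14 to 0.87 for Amn, 2.04 to 2.66 for Dab2 and 1.29 to 1.67 for Lrpap1. For shCtbp2 against shGFP 0 to 1 genes were raised and 0 to 2 lowered, and the differences ranged from -2.69 to -0.74 for Lrp2, -1.44 to 0.61 for Cubn, 1.01 to 2.07 for Amn, -1.53 to -0.57 for Dab2 and -0.23 to 0.31 for Lrpap1. Cubn turned without shGFP_RA (0.17) or shCtbp2_RA (0.61) and Lrpap1 without shGFP_UT (-0.23). For shRxr the differences ranged from -1.35 to 0.20 for Lrp2 (turned without shGFP_RA) and -0.71 to 0.42 for Amn (turned without shRxr_RA), and no gene was called. The RA effect was fitted within lines, which pairs the untreated and RA library of each line, and no pairing by replicate number was made since the labels give none. Amn, with 20 to 152 reads in a library, is limited by depth.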

Other observations

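Stra6, the retinol uptake receptor, differed from Lrp2 in the shCtbp2 line. It had 6.44 and 748.4 normalised reads (UT and RA) for shGFP, 0.827 and 1252 for shCtbp2, and 1.67 and 234.0 for shRxr. Its highest library was shCtbp2_RA, which was the lowest for Lrp2. These levels are not GC-adjusted, and values of that library were higher at higher GC content. With GC adjustment the RA change of Lrp2 in shCtbp2 was 0.53 in place of -0.20. Clu, whose product megalin binds, had 180.4 and 528.4 for shGFP, 67.0 and 148.5 for shCtbp2, and 131.4 and 190.8 for shRxr. Nphs1, which encodes nephrin of the kidney podocyte slit, fell with RA over the lines by 1.56 on the log2 scale (SE 0.40, limma adjusted p 0.0180), from 240.0 to 22.5 in shGFP, 211.7 to 158.4 in shCtbp2 and 307.2 to 114.5 in shRxr.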
